A study of Rattus norvegicus with 6 samples.

Results

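The tricarboxylic acid (TCA) cycle is the ring of reactions in the mitochondrial matrix that burns acetyl groups to carbon dioxide and hands the electrons to the respiratory chain. Its enzymes are encoded in the nucleus, made in the cytosol and imported. In the kidney the cycle is most active in the tubules, above all in the proximal tubule and thick ascending limb, whose salt and solute transport consumes much ATP. The 9 enzyme genes described here, Cs, Idh3a, Idh2, Ogdh, Dlst, Suclg1, Sucla2, Fh and Mdh2, were taken from the table of 31368 genes by gene symbol. Each symbol stood in 1 row, and all 9 were among the 15371 genes that passed the filter on low counts.

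RNA was sequenced from renal tissue of wild-type male Sprague-Dawley rats, in 3 libraries labelled CKD (a model of chronic kidney disease) and 3 labelled Sham (its controls). The design text gives an age of 8 weeks for the rats in which the model was set up. The sources used here give neither the procedure behind the model nor the time from it to sampling. No label ties the libraries of a group to different rats, so p-values rest on the scatter of these libraries alone, possibly a technical one.

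Totals were 17240755 to 17503644 counts in the CKD libraries and 15918035 to 17409090 in the Sham libraries. The 37 genes of the mitochondrial genome took 8.83% to 10.8% of counts in CKD and 14.4%, 37.9% and 15.3% in Sham 1, Sham 2 and Sham 3. Sham 2 also stood apart in its nephron markers: 10 proximal tubule markers summed to 5299 CPM there, against 13279 in Sham 1 and 18756 in Sham 3, while 5 intercalated cell markers summed to 1996 CPM, against 341 and 609. Sham 1 stood apart in others. Its thick ascending limb markers summed to 8116 CPM, against 3639 in Sham 2 and 1955 in Sham 3. Its distal convoluted tubule markers summed to 170 CPM, against 2845 in Sham 2 and 1126 in Sham 3. CPM are counts brought to a common library total, with library sizes scaled by TMM, edgeR's correction for libraries in which a few genes take many reads. The TMM factors were 1.13 to 1.19 in CKD and 0.837 to 0.893 in Sham, which lowers CKD values relative to Sham values throughout. In bulk tissue, fewer cells of a type and less RNA per cell cannot be told apart.

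None of the 9 enzymes passed an adjusted p of 0.05 between CKD and Sham in edgeR's quasi-likelihood test, in which 3.82% of 15371 genes passed, 1.15% lower and 2.67% higher in CKD. The count of 0 stood beside 1 member, Mdh2, at an unadjusted p under 0.05 (23.8% of all genes), and of the 9 DESeq2 called that gene alone. All 9 had a negative log2 fold change (CKD minus Sham), from -0.10 for Idh2 to -0.61 for Mdh2, with a median of -0.37. Over all genes tested the median was -0.01, and 50.5% of fold changes were negative. Over the 1435 genes at least as abundant as Idh3a, the least abundant of the 9, the median was -0.22. With scaling by library totals alone, which set the median of all genes at 0.41, 3 of the 9 fold changes were negative and their median was 0.04. Relative to the median of all genes the members' median was -0.36 with TMM and -0.37 with library totals. A change of scaling shifts all genes nearly alike, so these values agree by construction. The fewest counts behind any value were 1530, where counting error is 2.56%, so the spread between libraries and not the depth sets the precision.

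**Figure D1:**
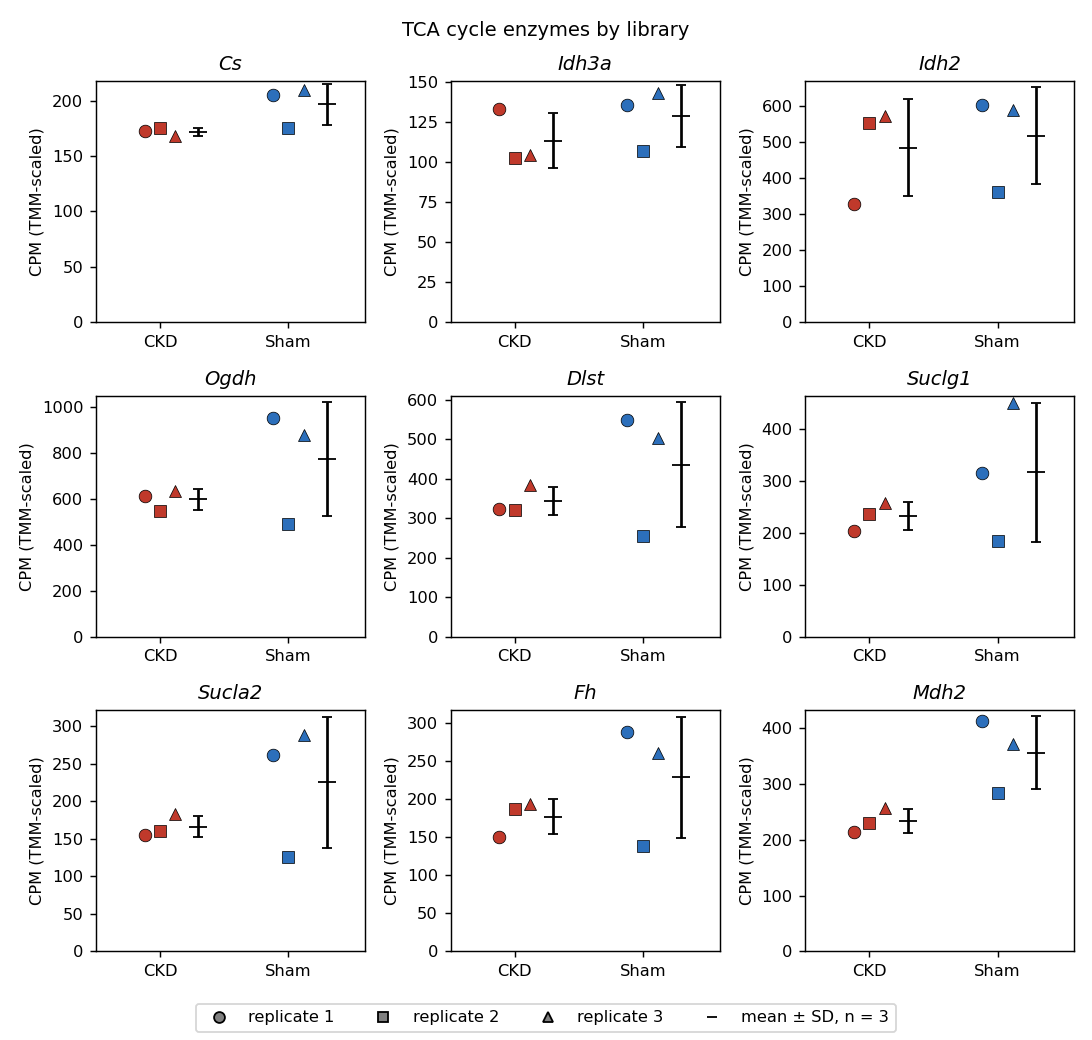
CPM (TMM-scaled, vertical axes from 0) of the 9 enzymes in each library, CKD left and Sham right; symbols mark the replicate number and the bars are mean ± SD (n = 3). Sham 2 (blue squares) lies below both other Sham libraries in each panel, and the CKD points lie below all Sham points for Mdh2 and, by a margin too small to see, for Cs.

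Citrate synthase (Cs) makes citrate from oxaloacetate and acetyl-CoA and opens the cycle; its activity is widely used as a gauge of mitochondrial content. In the coordinates of the deposited table it lies on chromosome 7 from 758345 to 791421, plus strand. Cs had 173, 175 and 168 CPM in CKD 1, CKD 2 and CKD 3, against 205, 175 and 209 CPM in Sham 1, Sham 2 and Sham 3. The CKD libraries lay close together, and the highest of them, at 174.9 CPM, stood just under Sham 2 at 175.02. The log2 fold change was -0.19 ± 0.20 (SE; 95% interval -0.67 to 0.28; edgeR adjusted p = 0.607), so a fall to 0.630 of the Sham level and a rise to 1.21 times it both lie inside the interval. The raw counts ran the other way, with 3584, 3519 and 3276 in CKD and 3077, 2505 and 2974 in Sham, and with library totals alone the log2 fold change was 0.23. The 300 bases around its start (250 before and 50 after) are shown because Cs had the most CCAAT boxes among the members, 3, which are in capitals on either strand.

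Cs (GRCr8, chr7:1348139-1348438, plus strand): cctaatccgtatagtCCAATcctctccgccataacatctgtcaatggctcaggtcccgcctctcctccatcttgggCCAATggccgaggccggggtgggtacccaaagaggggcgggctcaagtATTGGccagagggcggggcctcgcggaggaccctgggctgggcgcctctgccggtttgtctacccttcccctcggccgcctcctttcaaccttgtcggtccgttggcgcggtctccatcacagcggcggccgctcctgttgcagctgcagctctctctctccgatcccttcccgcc

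Isocitrate is oxidised by separate enzymes. Idh3a encodes the catalytic subunit of the NAD-linked isocitrate dehydrogenase, a regulated step of the cycle, and Idh2 the NADP-linked mitochondrial enzyme, which also supplies NADPH for removing peroxides. Idh3a, on chromosome 8 from 54971740 to 54991084 (plus strand), had 133, 103 and 105 CPM in the CKD libraries 1, 2 and 3, against 136, 107 and 144 CPM in Sham. CKD 1 lay between Sham 2 and the other Sham libraries, CKD 2 and CKD 3 lay under all Sham values, and the groups overlapped. Its log2 fold change was -0.18 ± 0.22 (95% interval -0.69 to 0.33; edgeR adjusted p = 0.658). Idh2, on chromosome 1 from 134029772 to 134058025 (minus strand), had 329.6, 553 and 572 CPM in CKD, against 605, 363 and 589 CPM in Sham. CKD 1 and Sham 2 were the low libraries, with 2 high libraries in each group. The Idh2 log2 fold change of -0.10 ± 0.35 (95% interval -0.91 to 0.71; edgeR adjusted p = 0.892) was the smallest of the 9 and became 0.12 without CKD 1. These isocitrate dehydrogenases thus took their highest values in different CKD libraries, Idh3a in CKD 1 and Idh2 in CKD 3.

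The 2-oxoglutarate dehydrogenase complex releases the next carbon dioxide. Ogdh encodes its decarboxylase and Dlst its succinyltransferase core, which carries the lipoyl group. Ogdh, on chromosome 14 from 81150091 to 81217479 (plus strand), had 612, 549 and 635 CPM in CKD, against 956, 490 and 879 CPM in Sham. Dlst, on chromosome 6 from 104758631 to 104783296 (plus strand), had 324, 322 and 384 CPM in CKD, against 547, 255 and 504 CPM in Sham. For both genes every CKD library lay between Sham 2 and the pair of Sham 1 and Sham 3. The log2 fold change was -0.37 ± 0.34 for Ogdh (95% interval -1.17 to 0.42; edgeR adjusted p = 0.549) and -0.34 ± 0.34 for Dlst (95% interval -1.14 to 0.45; edgeR adjusted p = 0.586). Inside each library the partners stood in a similar proportion, with a log2 ratio of Ogdh to Dlst of 0.92, 0.77 and 0.72 in CKD and of 0.80, 0.94 and 0.80 in Sham.

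Succinate-CoA ligase captures the energy of succinyl-CoA as a nucleoside triphosphate. Suclg1 encodes the alpha subunit common to both forms, Sucla2 the beta subunit that makes the ADP-using form, and Suclg2, outside the 9, the beta subunit of the GDP-using form. Suclg1, on chromosome 4 from 105308039 to 105337600 (plus strand), had 203, 238 and 258 CPM in CKD, against 315, 185 and 452 CPM in Sham. Sucla2, on chromosome 15 from 48752312 to 48805138 (plus strand), had 155, 161 and 182 CPM in CKD, against 261, 126 and 288 CPM in Sham. Both showed the order seen for Ogdh, with Sham 2 lowest, CKD between, and Sham 1 and Sham 3 highest. The log2 fold change was -0.44 ± 0.35 for Suclg1 (95% interval -1.26 to 0.37; edgeR adjusted p = 0.477) and -0.44 ± 0.33 for Sucla2 (95% interval -1.21 to 0.33; edgeR adjusted p = 0.460). For Suclg1 the value was -0.16 without Sham 3, the library with its highest level, and -0.75 without Sham 2.

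Fumarate hydratase (Fh) adds water to fumarate to give malate, and in people its loss causes renal tumours. Fh, on chromosome 13 from 87524337 to 87550266 (minus strand), had 151, 186 and 194 CPM in CKD, against 288, 139 and 260.0 CPM in Sham. Sham 2 was again the lowest library, and the groups overlapped. The log2 fold change was -0.37 ± 0.31 (95% interval -1.10 to 0.36; edgeR adjusted p = 0.513). Its start region is shown as that of an enzyme whose lowest library was Sham 2; the capitals mark its 2 CCAAT boxes, on either strand.

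Fh (GRCr8, chr13:90082401-90082700, minus strand): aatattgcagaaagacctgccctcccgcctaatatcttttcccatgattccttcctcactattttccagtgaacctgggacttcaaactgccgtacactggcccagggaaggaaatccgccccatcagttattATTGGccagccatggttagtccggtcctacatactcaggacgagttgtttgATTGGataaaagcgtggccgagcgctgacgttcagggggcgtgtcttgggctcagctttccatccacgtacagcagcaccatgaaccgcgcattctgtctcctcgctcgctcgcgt

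Malate dehydrogenase (Mdh2) closes the cycle by remaking oxaloacetate and also serves the malate-aspartate shuttle. Mdh2, on chromosome 12 from 20894262 to 20907271 (minus strand), had 214, 230 and 257 CPM in CKD, against 413, 284 and 371 CPM in Sham. All CKD values in TMM-scaled CPM lay below all Sham values, Sham 2 included. Raw counts overlapped, with 4444, 4625 and 5024 in CKD and 6195, 4069 and 5270 in Sham. There Sham 2 lay below every CKD library, so the separation rests on the scaling. Mean levels were 234 ± 21.8 CPM in CKD and 356 ± 65.7 CPM in Sham (SD, n = 3 each). The log2 fold change of -0.61 ± 0.25 (95% interval -1.19 to -0.02) was the most negative of the 9 and missed the threshold in edgeR (unadjusted p = 0.0446, edgeR adjusted p = 0.198). DESeq2 called Mdh2 lower in CKD (log2 fold change -0.66, DESeq2 adjusted p = 0.0398), in a test that called 7.27% of all genes lower. Over all 18 alternative settings the fold change stayed negative, from -0.78 to -0.19, and the adjusted p ran from 0.0398 to 0.641. The start region of Mdh2 is shown because this was the member set furthest apart between the groups. It has no CCAAT box, and the capitals mark 4 stretches that match CGCGAGA on either strand; stretches whose matches overlap are joined.

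Mdh2 (GRCr8, chr12:26543792-26544091, minus strand): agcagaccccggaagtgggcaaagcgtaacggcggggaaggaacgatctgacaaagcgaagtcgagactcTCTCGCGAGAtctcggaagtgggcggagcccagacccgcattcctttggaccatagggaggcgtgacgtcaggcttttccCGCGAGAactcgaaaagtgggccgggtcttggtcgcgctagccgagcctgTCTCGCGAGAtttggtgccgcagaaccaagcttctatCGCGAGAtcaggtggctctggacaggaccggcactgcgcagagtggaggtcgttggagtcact

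RefSeq start regions (GRCr8) were matched for 8 of the 9 enzymes, all but Idh3a. Of the 8, those of Cs, Fh, Idh2, Ogdh and Suclg1 held CCAAT or its complement ATTGG, a motif in 37.5% of all 33469 start regions of the same length. The estrogen-related receptor element AAGGTCA (4.61% of all) and GCATGCG, the core of the NRF1 site (3.33% of all), matched 0 of the 8 on either strand. CGCGAGA was searched after the Mdh2 sequence had been seen; it lay in 2.39% of all start regions and among the members only in that of Mdh2. The GC content of the 8 ran from 53.0% to 70.0%, against a median of 51.7% over all start regions.

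In TMM-scaled CPM, non-overlap between the groups was thus seen for Mdh2 and Cs, 2 of the 9, both lower in CKD. Of all genes 12.4% did not overlap in that direction, 18.8% in the other and 31.2% in either. None of the 9 was higher in CKD without overlap on that scale. In raw counts the groups overlapped for Mdh2, and for Cs every CKD library lay above every Sham library. For the 5 enzymes Ogdh, Dlst, Suclg1, Sucla2 and Fh the lowest library of all 6 was Sham 2. In raw counts Sham 2 was the lowest library for every one of the 9. Its log2 CPM lay below the mean of Sham 1 and Sham 3 by amounts that differed between enzymes, the differences being -0.24 for Cs, -0.39 for Idh3a and -0.46 for Mdh2, but -0.90 for Ogdh, -0.98 for Fh, -1.03 for Suclg1, -1.04 for Dlst and -1.12 for Sucla2, with Idh2 between at -0.72. The SD of log2 CPM was 0.03 within CKD and 0.14 within Sham for Cs, and 0.12 within CKD and 0.65 within Sham for Sucla2. For Idh3a it was 0.21 within CKD and 0.23 within Sham, and for Idh2 it was 0.45 within CKD and 0.41 within Sham. As a share of the counts outside the mitochondrial genome, the 9 enzymes together took 0.299%, 0.317% and 0.350% in CKD 1, 2 and 3, against 0.375%, 0.286% and 0.389% in Sham 1, 2 and 3. Sham 2 was therefore lowest also when mitochondrial reads were left out of the total.

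Without Sham 2, all 9 fold changes were more negative, from -0.31 for Cs to -0.78 for Mdh2, with a median of -0.66 in place of -0.37. Sham 2 was the lowest Sham library for each of the 9, so the direction of this shift was built in and is no separate support. Ogdh then stood at -0.66, Dlst at -0.65, Fh at -0.67, Suclg1 at -0.75 and Sucla2 at -0.76. Ogdh, Dlst, Suclg1, Sucla2, Fh and Mdh2, 6 of the 9, then reached an unadjusted p under 0.05, as 13.1% of all genes did with a lower value in CKD. That share is no fair baseline for the 6, since the library left out was the lowest Sham library for each of them. None of the 9 passed adjustment (edgeR adjusted p from 0.0760 for Sucla2 to 0.503 for Idh2). In that fit 2 of 15756 genes passed, both lower in CKD (0.0127%). The median was -0.21 without Sham 1, -0.28 without Sham 3, and -0.43 to -0.31 with 1 CKD library left out. In Sham 2, low proximal tubule markers (5299 CPM) and a high mitochondrial share went together with low enzyme values. The same markers summed to 9966 to 13288 CPM in CKD, against 13279 in Sham 1 and 18756 in Sham 3. The CKD libraries had both a lower mitochondrial share (8.83% to 10.8%) and lower summed enzyme values (2295 to 2756 CPM) than Sham 1 and Sham 3. Those stood at 14.4% and 15.3%, with 3727 and 3696 CPM. The part of the markers and of the mitochondrial share in the result was not tested.

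**Figure D2:**
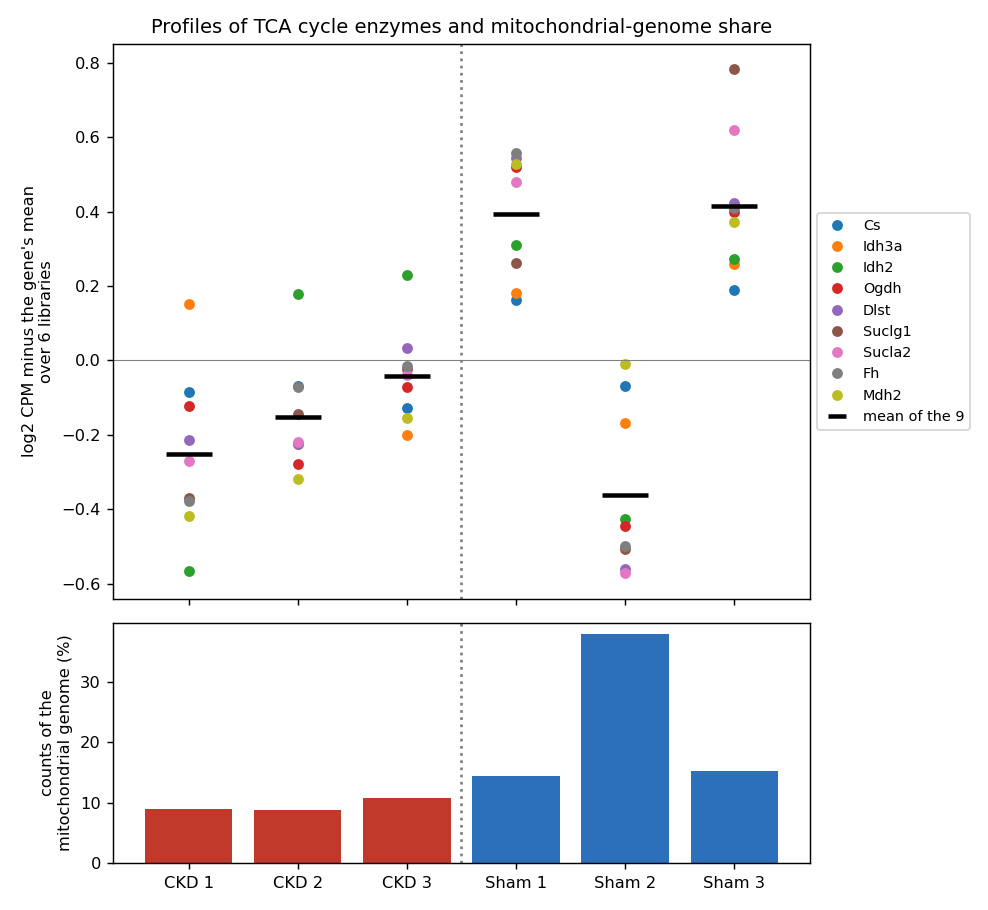
Upper panel: log2 CPM of each enzyme minus its own mean over the 6 libraries (vertical axis), with the mean of the 9 as a black bar, CKD libraries left and Sham libraries right. Lower panel: share of counts from the mitochondrial genome in percent. The mean of the 9 was -0.25, -0.15 and -0.04 in CKD 1, 2 and 3 and 0.39, -0.36 and 0.41 in Sham 1, 2 and 3, where Sham 2 also had the highest mitochondrial share, 37.9%.

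Levels per length (CPM per kilobase of the deposited gene length) put Mdh2 first and Idh3a last in both groups. In CKD, Mdh2 stood at 170 ± 15.8 CPM per kilobase, Ogdh at 141 ± 10.4, Suclg1 at 130.1 ± 15.5, Fh at 109 ± 14.2, Idh2 at 95.8 ± 26.6, Dlst at 77.3 ± 8.02, Sucla2 at 64.6 ± 5.57, Cs at 51.4 ± 1.09 and Idh3a at 46.1 ± 6.98 (SD, n = 3). In Sham the order was the same, from 259 ± 47.7 for Mdh2 through 182 ± 58.6 for Ogdh to 52.3 ± 7.87 for Idh3a. In CKD the ranges of neighbours in this order were separate for Mdh2 and Ogdh, for Dlst and Sucla2, and for Sucla2 and Cs, and overlapped for the other 5 pairs. In Sham all 8 neighbouring pairs overlapped. These levels rest on the deposited gene lengths, 5062 bases for Idh2 and 1377 for Mdh2.

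Because all 9 fold changes shift together with the scaling, ratios between partner genes were compared inside each library, where the scaling cancels. For 9 such ratios, 8 of them given here, the difference in mean log2 ratio was tested by an exact two-sided permutation test over the 20 ways to split 6 libraries, whose smallest possible p is 0.1, so none could pass 0.05. The ratio of Sucla2 to Suclg2, the ADP-using to the GDP-using beta subunit, was -1.40, -1.73 and -1.49 in CKD, against -1.13, -0.996 and -1.14 in Sham. Every CKD library lay below every Sham library (difference -0.45, exact p = 0.1, adjusted over the 9 ratios 0.3). Suclg2 itself averaged 485.1 ± 65.9 CPM in CKD and 485.3 ± 205 CPM in Sham (log2 fold change -0.00 ± 0.39, positive at 0.41 with library totals alone). The ratio of Ogdh to Ogdhl, a less abundant paralogue, was 4.59, 4.51 and 4.65 in CKD, against 6.53, 6.20 and 4.86 in Sham (difference -1.28, exact p = 0.1, adjusted 0.3). Ogdhl stood at 25.3, 24.0 and 25.1 CPM in CKD, against 10.2, 6.57 and 30.2 CPM in Sham, and so overlapped between groups by itself.

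The other 6 ratios overlapped between groups. Suclg1 to Sucla2 differed by -0.01 (exact p = 1) and Ogdh to Dlst by -0.05 (exact p = 0.5), both pairs of subunits of 1 complex. Mdh2 to its cytosolic counterpart Mdh1 differed by -0.12 (exact p = 0.5). Idh3a to Idh3b, a second subunit of the same enzyme, differed by 0.19 (exact p = 0.4), with CKD 1 at -0.14 and CKD 3 at -0.86. Idh2 to Idh3a differed by 0.08 (exact p = 1) and Idh2 to the cytosolic Idh1 by -0.58 (exact p = 0.4), both with CKD 1 lowest. The Idh2 to Idh1 difference was -0.21 without Sham 2 and -0.90 without Sham 3.

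**Figure D3:**
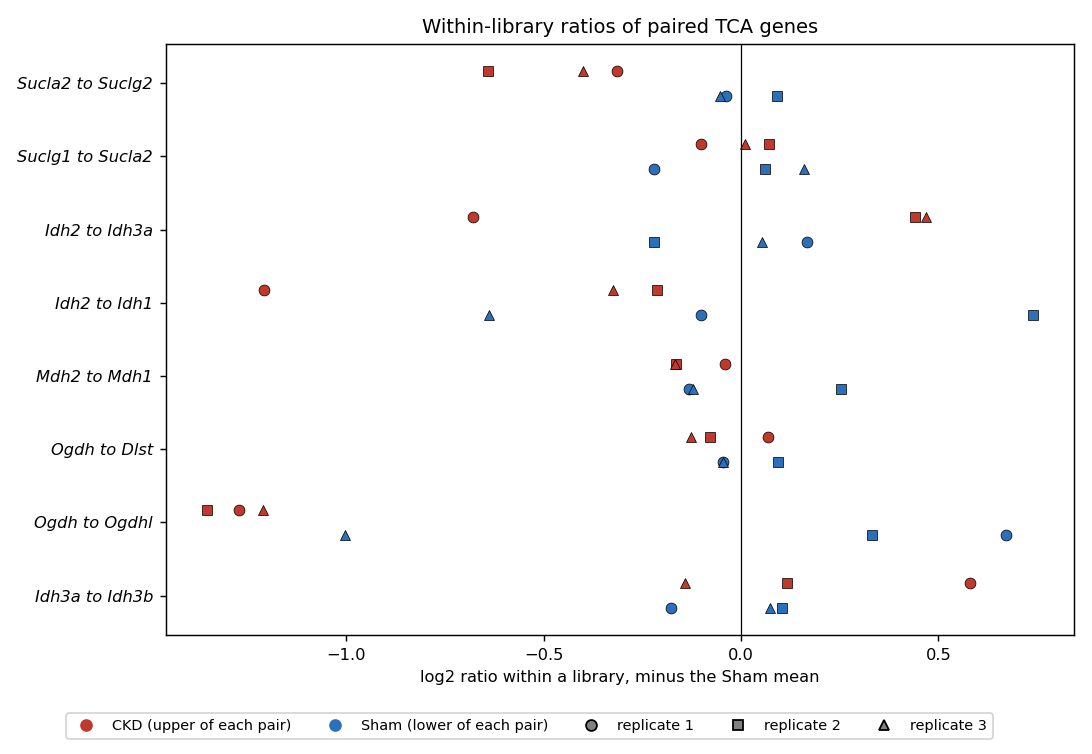
Log2 ratio of paired genes within each library, minus the Sham mean of that ratio (horizontal axis), with CKD on the upper and Sham on the lower line of each pair; symbols mark the replicate number. The groups are separate for Sucla2 to Suclg2 and Ogdh to Ogdhl (CKD lower), and overlap for the other 6 ratios drawn.

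Of the remaining TCA subunits and enzymes, 10 tested, 0 passed in either direction, 9 had a negative fold change, and the median was -0.40. Sdhd, a membrane anchor of succinate dehydrogenase, stood at 181 ± 30.4 CPM in CKD and 274 ± 88.1 CPM in Sham (log2 fold change -0.60 ± 0.30, edgeR adjusted p = 0.267), and its groups overlapped. Of the 10, only Ogdhl had a positive value (0.66 ± 0.52), which was 0.26 without Sham 2, 0.40 without Sham 1 and 1.501 without Sham 3.

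**Figure D4:**
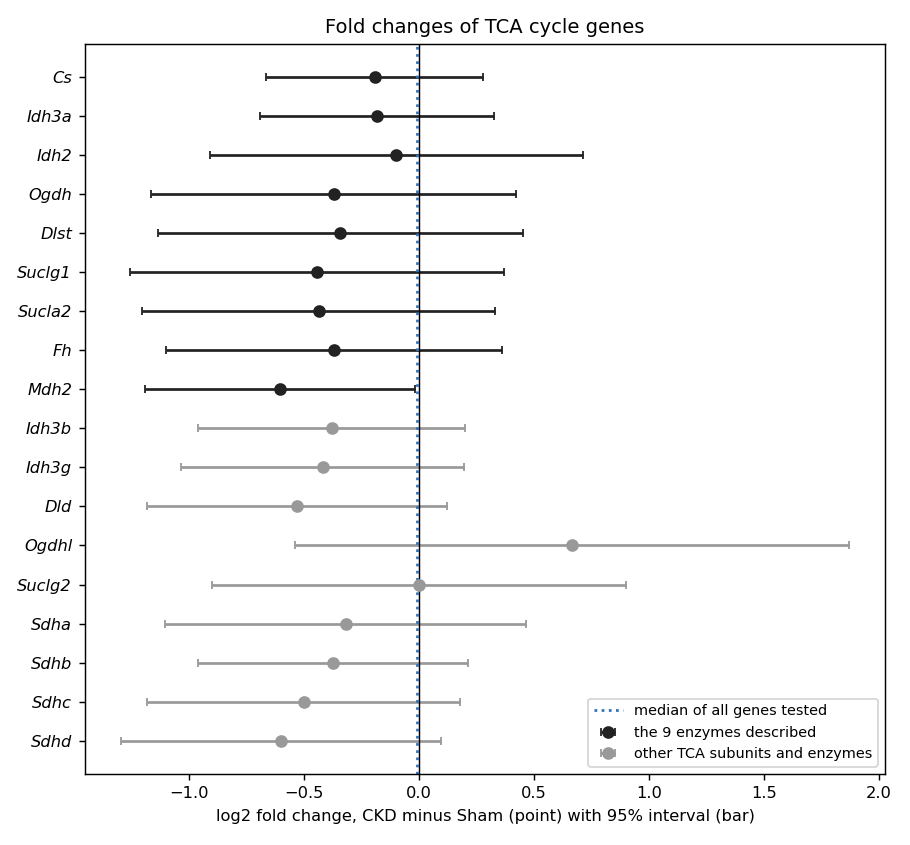
Log2 fold change, CKD minus Sham (point), with its unadjusted 95% interval (bar) for the 9 enzymes (black) and 9 other TCA genes (grey); the dotted line is the median of all genes tested, -0.01. The interval of Mdh2 ends below 0, at -0.02, and all others drawn cross 0.

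Of 5 cytosolic counterparts, 1 fell and 0 rose. Me1, the cytosolic malic enzyme that turns malate into pyruvate and NADPH, had 43.6, 35.0 and 55.9 CPM in CKD, against 281, 97.0 and 149 CPM in Sham (log2 fold change -1.97 ± 0.41, edgeR adjusted p = 0.0478). All CKD values lay below all Sham values. The call for Me1 was lost without any 1 of the libraries other than Sham 1 (edgeR adjusted p from 0.0552 to 0.201), while the fold change ran only from -2.30 to -1.49. Aco1, cytosolic aconitase and iron sensor, stood at -0.94 ± 0.46 on the log2 scale (edgeR adjusted p = 0.261). Among the genes that feed the cycle, 0 of 15 passed and 13 had a negative value (median -0.34). Pdhb, a subunit of pyruvate dehydrogenase, which makes acetyl-CoA, missed the threshold at -0.99 ± 0.21 (log2 fold change; edgeR adjusted p = 0.0505), with 123 ± 8.12 CPM in CKD and 244 ± 32.0 CPM in Sham. Pdhb passed in DESeq2 (adjusted p = 3.6e-05), in edgeR with RLE factors, the CPM filter, no robust fit or the mitochondrial genome removed (edgeR adjusted p from 0.0480 to 0.0494) and without Sham 1 (edgeR adjusted p = 0.0366), and in limma-voom with library weights (adjusted p = 0.0357). Glud1, which makes 2-oxoglutarate from glutamate, had -0.93 ± 0.42 (edgeR adjusted p = 0.229).

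Of 8 tested genes of lipoate synthesis and succinate dehydrogenase assembly, 0 passed (median -0.33); Iscu, the scaffold for iron-sulphur clusters, had -0.68 ± 0.22 and the assembly factor Sdhaf3 -0.98 ± 0.32 (edgeR adjusted p = 0.1102 and 0.119). General mitochondrial proteins, 15 tested, also had 0 calls and a median of -0.35, close to that of the 9 enzymes. The import genes Tomm20 and Timm23 had the smallest p of these, with -0.61 ± 0.24 and -0.60 ± 0.25 (edgeR adjusted p = 0.181 and 0.205). Of 9 regulators of mitochondrial genes 0 passed (median -0.14). Myc had -1.47 ± 0.34 and the coactivator Ppargc1b -0.96 ± 0.33 (edgeR adjusted p = 0.0557 and 0.131), while Ppargc1a, the best known coactivator of mitochondrial genes, averaged 47.4 ± 6.42 CPM in CKD and 44.99 ± 4.10 CPM in Sham.

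The genes whose log2 CPM profile over the 6 libraries lay nearest to the mean profile of the 9 enzymes were Cops2, Aftph, Opa1, Zcchc14, Dnajc19 and Afg1l, out of 9609 other genes with a symbol and an average log2 CPM of at least 3. Their root mean square difference from that profile was 0.02 for Cops2 and up to 0.07 for Afg1l, where the 9 enzymes themselves differed from it by 0.10 (Ogdh) to 0.23 (Idh2). Opa1 (fusion of the inner mitochondrial membrane) and Dnajc19 (a co-chaperone of protein import) belong to mitochondria, and Cops2 is a subunit of the COP9 signalosome. The 6 were chosen for their profile, and none passed between the groups.

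Cell type markers also differed in level between libraries. The 10 proximal tubule markers summed to 9966 to 13288 CPM in CKD and 5299 to 18756 CPM in Sham, with a median log2 fold change of 0.01, 0 of 10 called and none at 0. Those of the thick ascending limb, 5 in number, summed to 1261 to 3143 CPM in CKD and 1955 to 8116 CPM in Sham (median log2 fold change -0.92, 0 called). Principal cell markers, 5 in number, summed to 419 to 550 CPM in CKD and 507 to 2329 CPM in Sham (median -1.18, 0 called). The 3 tested distal convoluted tubule markers, Slc12a3, Calb1 and Trpm6, summed to 611 to 775 CPM in CKD and 170 to 2845 CPM in Sham (median -0.63, 0 called). Pvalb, a further marker of that segment, was at 0 in every library. Macrophage markers summed to 553 to 1335 CPM in CKD and 127 to 347 CPM in Sham (median 2.08, 2 of 6 called higher). Fibroblast markers summed to 750 to 1301 CPM in CKD and 29.6 to 448 CPM in Sham (median 2.18, 1 of 5 called higher). The summed level of the 9 enzymes was 2295, 2516 and 2756 CPM in CKD and 3727, 2123 and 3696 CPM in Sham. The part of these markers in the enzyme values was not tested.

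**Figure D5:**
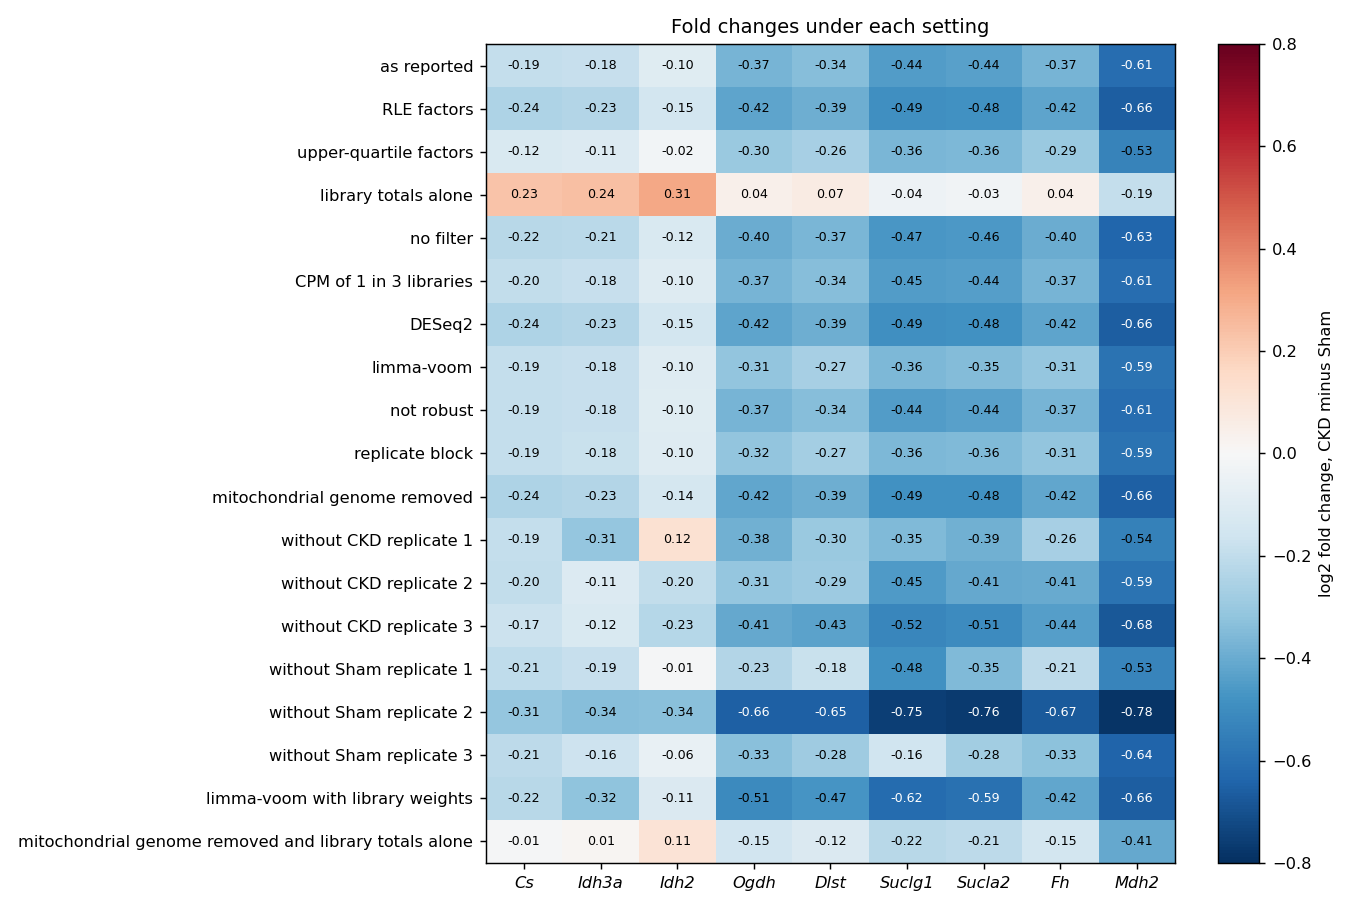
Log2 fold change, CKD minus Sham, of the 9 enzymes (columns) under the reported setting and 18 alternatives (rows); blue is lower and red higher in CKD, and each cell prints its value. With library totals alone 6 of the 9 turn positive, and each of the 9 has its most negative value without Sham 2.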

How the data were processed

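Per the labels' protocols, RNA of renal tissue was isolated with TRIzol, and library preparation used the VAHTS Universal V5 kit. The authors deposited raw counts per gene, with 1 column per library and no normalization, and a column of gene lengths in bases. HISAT2 2.1.0, HTSeq 0.11.2, fastp 0.20.1 and the build Rnor_6.0 are named, without role or order, per the submitters' processing notes. No source used here gives the strand setting, so overlapping genes on opposite strands may share reads. Chromosome 1 of the table has its last gene end at 260398790, and which build its coordinates follow is uncertain. Columns were matched to libraries by title, and 0 columns belonged to other samples. Libraries of 1 group differed by more than sampling noise, with chi-square values of 30.9 to 330 per degree of freedom.

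Genes were kept by filterByExpr (minimum count 10, minimum total 15), scaled by TMM and fitted with edgeR 4.0.16 (robust quasi-likelihood, group as the only term; limma 3.58.1, R 4.3.3). Benjamini-Hochberg adjustment ran over all 15371 genes, with a threshold of 0.05. Log2 CPM used a prior count of 2, and 95% intervals of fold changes are unadjusted. The alternatives were other scalings, filters and tools (DESeq2 1.42.0, limma-voom), a replicate block, removal of the mitochondrial genome, and each library left out; library weights and library totals without the mitochondrial genome were added after seeing the data. The named genes are all members, the 2 of each related list with the smallest p, ratio partners and the 6 nearest profiles; Ppargc1a was named after its values were seen. The values of 1 related gene and the ratio that uses it are not reported here. Sdhaf4 and Phb were not found by symbol. The members and lists were chosen with earlier results of these data known.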

Additional observations from a re-analysis of the deposited data

How the results depend on the processing

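None of the 9 enzymes was called under any of the 18 settings other than DESeq2, which called 1 (Mdh2, log2 fold change -0.66, DESeq2 adjusted p = 0.0398). DESeq2 called 16.2% of all genes. Without CKD 1 or CKD 2 that share was 0%. It was 0.0127% without Sham 2, 0.0442% without Sham 3 and 0.0651% with the replicate block. In these settings a count of 0 members was nearly set in advance and shows no stability. With library totals alone the fold changes of Cs, Idh2, Idh3a, Ogdh, Dlst and Fh became 0.23, 0.31, 0.24, 0.042, 0.069 and 0.040, the median of the 9 became 0.042, and Idh3b, Suclg2, Cops2, Aftph, Opa1, Zcchc14, Dnajc19 and Afg1l became 0.033, 0.41, 0.078, 0.16, 0.18, 0.13, 0.014 and 0.075; this setting drops the composition factors, which differ between the groups. With the mitochondrial genome removed as well, Idh2, Idh3a and Suclg2 stood at 0.11, 0.013 and 0.23. Suclg2 was also positive with upper-quartile factors (0.079), limma-voom (0.10) and the replicate block (0.090); the cause was not tested. With 1 library left out the fold changes ran from -0.31 to -0.17 for Cs, -0.34 to 0.12 for Idh2, -0.34 to -0.11 for Idh3a, -0.66 to -0.23 for Ogdh, -0.65 to -0.18 for Dlst, -0.76 to -0.28 for Sucla2, -0.75 to -0.16 for Suclg1, -0.67 to -0.21 for Fh, -0.78 to -0.53 for Mdh2, -0.35 to 0.18 for Suclg2 and -0.19 to 0.65 for Idh1, and the median of the 9 from -0.66 to -0.21. Log2 ratio differences ran from -0.12 to 0.073 for Suclg1 to Sucla2, -0.12 to 0.45 for Idh2 to Idh3a, -0.19 to 0.0021 (without Sham 2) for Mdh2 to Mdh1, -0.10 to 0.0012 (without Sham 2) for Ogdh to Dlst and -0.012 (without CKD 1) to 0.35 for Idh3a to Idh3b; the ratios of Sucla2 to Suclg2 and Ogdh to Ogdhl kept their sign.

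Over all genes 587 were called, 2228 with library totals alone, 2497 in DESeq2, 195 in limma-voom and 10 with the replicate block; without 1 library the count ran from 0 (without CKD 1 or CKD 2) to 1711 (without Sham 1), with 2 without Sham 2, 7 without Sham 3, and 2312 to 4893 genes at an unadjusted p under 0.05. With library totals alone 2047 calls were higher and 181 lower, in place of 411 and 176. Of the related genes 1 was called (Me1), against 2 with RLE factors, no filter, the CPM filter, no robust fit, the mitochondrial genome removed or library weights, 7 in DESeq2, and 0 in limma-voom and with the replicate block (Me1 edgeR adjusted p = 0.0687); without 1 library it was 0 to 3. The replicate block left the count of enzymes called at 0, in a fit that called 0.0651% of all genes. An unchanged 0 there cannot show whether a block matters to the enzymes. Same-numbered libraries did not deviate together (correlations -0.21, 0.0045 and -0.16). With 3 libraries per group these correlations cannot show whether same-numbered libraries share a preparation, and no label says so. Every member had at least 1530 counts in each library, while Ogdhl had 94 in Sham 2.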
